A study of Mus musculus with 2 samples.

Results

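The mouse genes Klrb1c, Klrc1, Klrc2, Klrd1, Klre1, Klrk1, Klrg1 and Ncr1 encode receptors of the NKG2 and NKR-P1 families, their relatives, and the natural cytotoxicity receptor NKp46. They were chosen by symbol as 8 of the 27998 genes measured, and each had a row in both libraries. The libraries came from CD45+ liver cells of C57BL/6 mice aged 7 to 10 weeks, 1 library for each of 2 sorted gates. The LSM gate held lineage-negative cells positive for Sca-1 and Mac-1, and the other gate held lineage-negative cells positive for CD122 (the interleukin receptor chain Il2rb) and CD49a (integrin alpha chain Itga1). Neither group carried a treatment or an altered gene in the labels, and the number of animals behind each library and the antibodies of the lineage mixture are not given in the sources used here. A gate had 1 library, so differences between gates could not be checked against replicates and are given without p-values.

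NK cells, innate lymphocytes and some T cells read the state of neighbouring cells through pairs of inhibitory and activating lectin-like receptors. Klrd1 (CD94) forms a dimer with Klrc1 (NKG2A), which inhibits, or with Klrc2 (NKG2C), which activates, and both dimers bind the non-classical class I molecule Qa-1. Klrk1 (NKG2D) signals through the adaptor Hcst (DAP10) or Tyrobp (DAP12) on binding stress-induced ligands. Klrb1c is the activating NKR-P1C receptor whose product is the classical NK marker of this strain, Klre1 pairs with Klri1 or Klri2, Klrg1 is an inhibitory cadherin receptor, and Ncr1 is used to mark NK cells and group 1 innate lymphocytes.

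Transcripts were counted as unique molecular identifiers (UMIs, 1 per captured transcript): 16226070 over 3133 LSM barcodes and 2632303 over 1655 CD122+CD49a+ barcodes. Of these, 3074 and 1257 barcodes had at least 500 detected genes, and 2987 and 1228 cells remained after the mitochondrial and doublet filters, with median depths of 5059 and 1457 UMIs. The libraries shared 3 barcodes. Cells were clustered in each library with all Klr genes and Ncr1 left out of the genes that shaped the clusters, so the clusters were not built on the receptors described here. A cluster was called lymphocyte when a CD3 chain UMI (Cd3d, Cd3e or Cd3g) was present in at least 30% of its cells, which gave LSM cluster 10 (81 cells) and CD122+CD49a+ clusters 1, 3, 5 and 7 (450, 195, 80 and 23 cells). Lymphocyte clusters thus held CD3 transcripts although both gates are labelled lineage-negative, and the CD122 gate also held 480 cells outside them, of which 5 (1.04%) had an Il2rb UMI against 48.4% of its 748 lymphocytes. Levels are CPM, UMIs of a gene scaled to a total of 1000000 over the summed cells of a class. Every interval is an exact 95% one for counting error alone.

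Among the lymphocyte clusters, LSM cluster 10 was T cell-like and led by Gzma, Cd3g, Cd3d and Gzmb. CD122+CD49a+ cluster 3 was T cell-like with Cd8b1 and Cd8a in front. CD122+CD49a+ cluster 1 stayed unnamed and was led by Maf, Zap70, Ccnd2, P2rx7 and Cxcr6. Cluster 5 stayed unnamed and was led by Gzmb, Cd7, Ccl4, Gzma and Xcl1, genes of cytotoxic lymphocytes. It raised 8 of 9 markers that NK cells and ILC1 share, 4 of 8 ILC1 markers (Itga1, Cd160, Tnfsf10 and Rgs1), 2 of 10 T cell markers (Cd3g and Cd8a) and 1 of 10 NK cell markers (Klra9). Its T cell markers nevertheless summed to 4023 CPM, against 4683 CPM in T cell-like cluster 3. Only 5 of the 80 cells in cluster 5 had no CD3 chain UMI. Tyrobp had a UMI in 78.8% of its cells. The NK regulator Eomes had 0 UMIs there and 16 in all 748 CD122+CD49a+ lymphocytes. Cluster 7 was a small unnamed group with the cycling-cell histone gene Hist1h2ae in front.

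Of the 8 receptor genes, 7 were at least 2-fold higher in the CD122+CD49a+ library with an interval beyond 1, the rule by which a gene is called below, and Klrd1 was not. The same call was made for 25.0% of the genes with at least 20 UMIs in the 2 libraries together. Klrb1c stood at 0.899 CPM (14 UMIs) in LSM cells and 62.6 CPM (144 UMIs) in CD122+CD49a+ cells, a ratio of 69.7 (40.2 to 131). Klrc2 stood at 0.706 and 58.7 CPM, a ratio of 83.1 (45.0 to 170). Among cells with at least 1000 genes these ratios were 11.9 and 21.9. Ncr1 had 1 LSM and 24 CD122+CD49a+ UMIs, a ratio of 163 with a wide interval (26.5 to 6684). These 3 genes passed the minimum of 20 UMIs only through the CD122+CD49a+ library, where they were high, so their calls and the count of 7 are a description.

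The other called genes were present in both gates. Klrc1 stood at 5.46 CPM in LSM and 65.2 CPM in CD122+CD49a+ cells, 12-fold higher (9.10 to 15.8). Klre1 was 9.38-fold higher (7.72 to 11.4), with 252 against 182 UMIs in libraries of very different depth. Klrg1 was 8.0-fold higher (4.90 to 13.1), from 39 and 33 UMIs. With CPM averaged over cells Klrc1 was at 5.77 and Klrg1 at 4.79, and with at least 1000 genes Klre1 was at 5.83. Klrk1 was 3.39-fold higher (3.06 to 3.75) at 251 against 74.1 CPM. The shares of cells with a UMI were 26.6% and 22.8% at the libraries' own depths, and 17.6% and 6.36% after every cell was thinned to 1000 UMIs. Klrd1 stood at 350 CPM in LSM cells and 385 CPM in CD122+CD49a+ cells, a ratio of 1.10 (1.02 to 1.18). Its ratio was 0.812 when the libraries were scaled by TMM and 0.659 among cells with at least 1000 genes, so no direction is given for Klrd1. TMM scaling moved every ratio by -0.43 on the log2 scale. Gate and library cannot be told apart in any of these ratios. Library make-up also differed, with 748 of 1228 CD122+CD49a+ cells and 81 of 2987 LSM cells in lymphocyte clusters. The ratios were not adjusted for it. Among lymphocytes alone Klrg1 had the opposite order, at 34.5 CPM in CD122+CD49a+ and 174 CPM in LSM cells. Klrb1c (126 and 21.1 CPM) and Klrc2 (117 and 47.4 CPM) kept their order, as did Ncr1 on 1 LSM UMI.

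**Figure D1:**
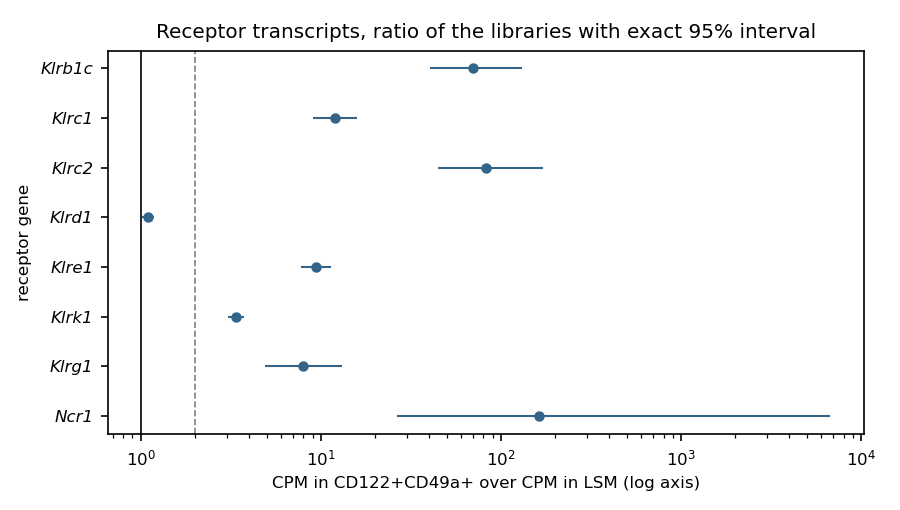
Ratio of summed CPM in the CD122+CD49a+ library to that in the LSM library for each receptor gene, on a log axis, with exact 95% counting intervals. Klrd1 lies at 1.10, and the other 7 genes lie between 3.39 (Klrk1) and 163 (Ncr1, which rests on 1 LSM UMI).

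The Klrd1 UMIs lay in different classes of the 2 gates, as did the UMIs of all genes. In LSM, 5328 of the 5458 Klrd1 UMIs lay outside the lymphocyte cluster, where 15391264 of all 15580978 UMIs lay. In the CD122+CD49a+ library, 674 of 885 lay in the lymphocyte clusters, where 1130517 of all 2300702 UMIs lay. Klrd1 stood at 596 CPM there, against 180 CPM in the other cells.

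Klrd1 was highest in CD122+CD49a+ cluster 5, at 1600 CPM (1372 to 1855) with a UMI in 78.8% of 80 cells. CD122+CD49a+ cluster 3 followed at 1053 CPM (944 to 1171) with a UMI in 63.6% of 195 cells. Next came conventional DC-like LSM cluster 2 (708 CPM, 679 to 737), unnamed LSM cluster 8 (692 CPM) and T cell-like LSM cluster 10 (685 CPM, 573 to 814), whose intervals overlapped. The small CD122+CD49a+ cluster 7, with 59 Klrd1 UMIs in 23 cells, held 608 CPM. A dendritic-like and a T cell-like class of the LSM gate therefore held Klrd1 at levels that counting error does not separate.

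Lower in the order stood plasmacytoid DC-like LSM cluster 7 (482 CPM), mature DC-like LSM cluster 6 (379 CPM), unnamed LSM cluster 5 led by Cxcl9 and Ccl17 (308 CPM) and lymphoid progenitor-like LSM cluster 1 (304 CPM). CD122+CD49a+ cluster 2, also led by Cd209a and Clec10a, held 265 CPM in 276 cells. It stayed unnamed because it raised 6 of 10 monocyte markers and 4 of 10 conventional DC markers, while the DC markers led it. The small CD122+CD49a+ clusters 9 (plasmacytoid DC-like, 9 cells) and 8 (unnamed, 17 cells) held 561 CPM (8 UMIs, 242 to 1105) and 228 CPM (21 UMIs). CD122+CD49a+ cluster 1, the largest lymphocyte cluster, reached only 165 CPM (134 to 201), with a UMI in 12.9% of its cells. Cross-presenting DC-like cells held 133 CPM in LSM cluster 3 and 77.3 CPM in CD122+CD49a+ cluster 4, a ratio of 0.582 (0.402 to 0.820) that did not pass the 2-fold rule. None of the 3 receptor genes tested in that class was called, against 14.7% of all genes called higher and 8.53% called lower. Macrophage-like LSM cluster 13, cycling LSM cluster 11 and plasma cell-like LSM cluster 12 held 144, 108 and 29.7 CPM. The lowest LSM levels were in monocyte-like LSM cluster 4, with 3 Klrd1 UMIs in 328 cells, and mast cell and basophil-like LSM cluster 9, with 1 UMI in 123 cells.

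**Figure D2:**
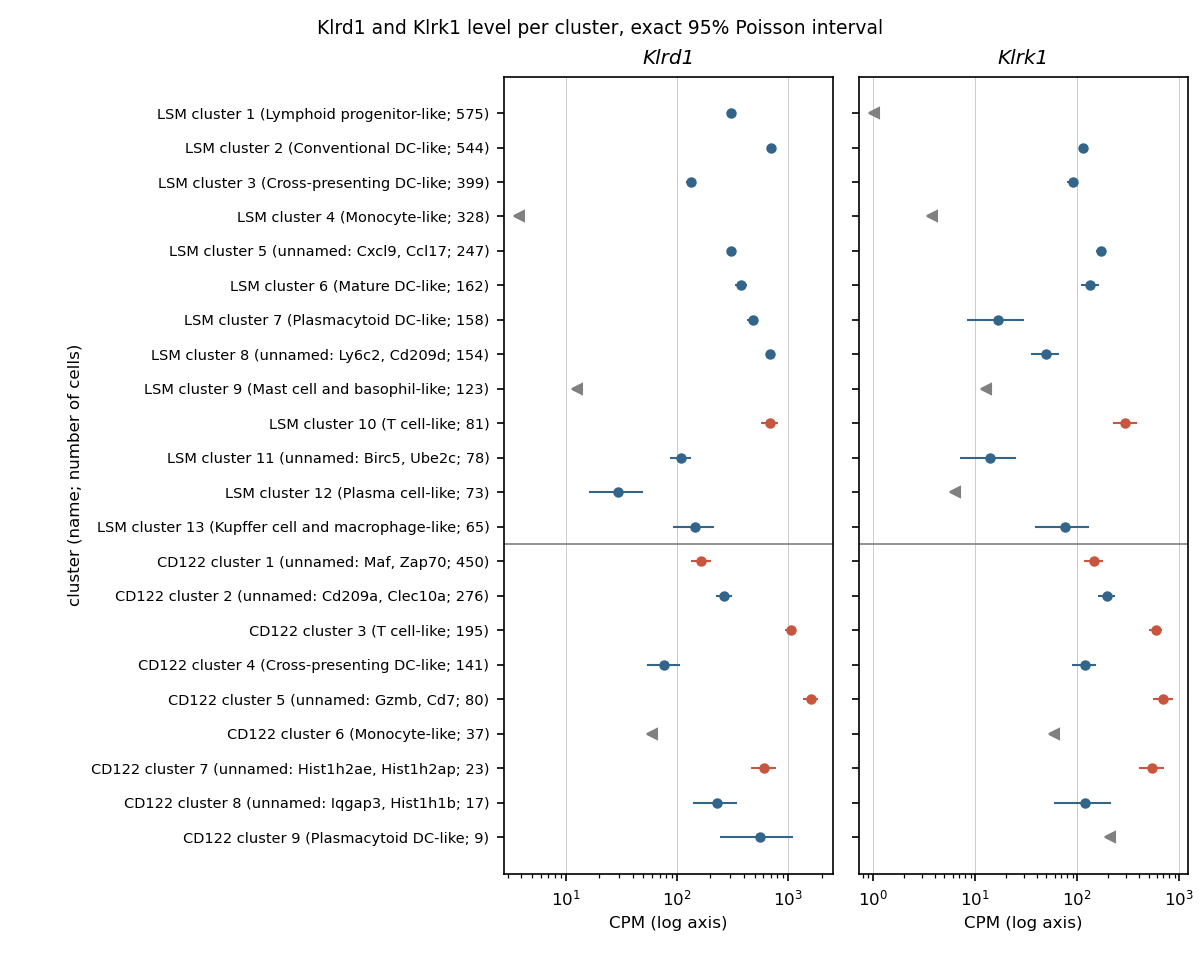
Klrd1 and Klrk1 levels (CPM, log axes) by cluster, with exact 95% counting intervals. Red marks lymphocyte clusters, blue the others, and grey triangles the floor of clusters with 3 or fewer UMIs. Klrd1 in LSM cluster 2 (708 CPM) lies beside that in LSM cluster 10 (685 CPM), whereas Klrk1 there (115 CPM) lies below LSM cluster 10 (295 CPM).

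Conventional DC-like LSM cluster 2 was led by Cd209a, Kcne3, Clec4b1 and Clec10a. Klrd1 had a UMI in 81.8% of its 544 cells, with a median of 3 and a maximum of 33 UMIs per cell, and 5 or more UMIs in 36.6% of cells. T cell-like LSM cluster 10 had a UMI in 54.3% of cells, with a median of 1 and a maximum of 11. The median depths were 5752 and 2234 UMIs per cell. After every cell was thinned to 1000 UMIs, the shares were 44.0% in cluster 2 and 40.5% in cluster 10. At that depth Cd3d had a UMI in 0% of cluster 2 and in 82.3% of cluster 10. That contrast is partly set by the CD3 rule for lymphocyte clusters.

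In the same library, Klrd1 had a UMI in 0.915% of monocyte-like cells at a median depth of 2343.5 UMIs. Over LSM clusters 2, 3 and 6 together, the dendritic-like clusters with conventional, cross-presenting and mature names, 711 of 1105 cells had a Klrd1 UMI, 64.3% (61.4 to 67.2). The share was 64.8% of 1049 cells when every cell with a T cell marker UMI was left out, and 63.4% of 1166 when predicted doublets were kept.

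CD3 transcripts did not accompany Klrd1 in these cells. LSM cluster 2 held 2251 Klrd1 UMIs and 4 CD3 chain UMIs, and 4 of its 445 Klrd1-positive cells (0.899%) had a CD3 UMI. LSM cluster 8 held 563 Klrd1 and 0 CD3 UMIs, and LSM cluster 5 held 526 and 2. CD122+CD49a+ cluster 2 held 145 and 17. LSM cluster 10 showed the opposite order, with 130 Klrd1 and 648 CD3 UMIs. The 10 T cell markers summed to 3.14 CPM in LSM cluster 2, with Cd3e, Cd3g, Cd6 and Thy1 at 0, and to 5724 CPM in LSM cluster 10. The 10 NK cell markers summed to 157 CPM in LSM cluster 2, all from Zeb2 and Irf8 with the other 8 at 0, and to 300.5 CPM in LSM cluster 10, with 5 at 0. Eomes was at 0 in both. The 9 markers that NK cells and ILC1 share summed to 5208 CPM in LSM cluster 2, mostly from Tyrobp and Fcer1g, and to 40261 CPM in LSM cluster 10, mostly from Ccl5 and Gzma. In plasmacytoid DC-like LSM cluster 7 the T cell markers summed to 497 CPM, from Cd8b1, Cd8a and Cd4, but the CD3 chains gave 1 UMI beside 318 of Klrd1.

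**Figure D3:**
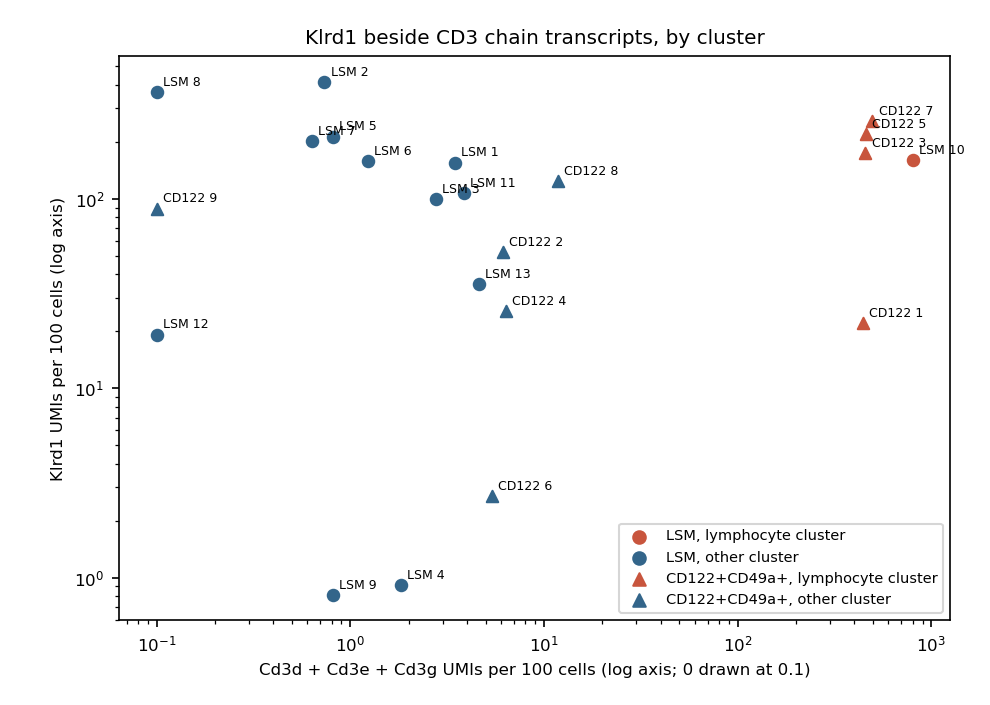
Klrd1 UMIs per 100 cells (y, log axis) against CD3 chain UMIs per 100 cells (x, log axis, with 0 drawn at 0.1) for each cluster. Circles are LSM and triangles CD122+CD49a+ clusters. LSM clusters 2 (2251 Klrd1 and 4 CD3 UMIs) and 8 (563 and 0) lie at upper left. The lymphocyte clusters, defined by their CD3 UMIs, lie at right.

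Klrc1, the inhibitory partner of Klrd1, was concentrated in lymphocytes. It was highest in LSM cluster 10, at 411 CPM (78 UMIs) with a UMI in 43.2% of cells. In the CD122+CD49a+ library it stood at 219 CPM in cluster 3, 134 CPM in cluster 7, 109.7 CPM in cluster 5 and 88.3 CPM in cluster 1. Outside the lymphocyte clusters, 2906 LSM cells held 7 Klrc1 UMIs in all and 480 CD122+CD49a+ cells held 1. Klrc2, the activating partner, had a different order, with 229 CPM in CD122+CD49a+ cluster 5, 161 CPM in cluster 3, 83.3 CPM in cluster 1, 51.5 CPM (5 UMIs) in cluster 7 and 47.4 CPM (9 UMIs) in LSM cluster 10. LSM cluster 10 was thus the highest class for Klrc1 but among the lower lymphocyte clusters for Klrc2. Near the transcript ends that the assay captures, 43.5% of the 50-base stretches of Klrc1 recur in Klrc2 or Klrc3 and 15.2% of those of Klrc2 recur in another gene, so the split between Klrc1 and Klrc2 is uncertain.

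DC-like and several other LSM clusters outside the lymphocytes held Klrd1 almost without these partners. Among the 445 Klrd1-positive cells of LSM cluster 2, 0 had a UMI of Klrc1 or Klrc2, which allows a share of up to 0.674% by a limit of 3 counts. LSM clusters 3, 5, 8 and 1 each had 1 such cell, among 190, 131, 130 and 306 Klrd1-positive cells. Of these, cluster 3 was cross-presenting DC-like, clusters 5 and 8 were unnamed, and cluster 1 was lymphoid progenitor-like. In LSM cluster 10, 32 of 44 Klrd1-positive cells (72.7%) had a partner UMI, against 6 of 37 (16.2%) of the rest. After thinning to 1000 UMIs these shares were 62.5% and 25.5%. In CD122+CD49a+ cluster 1, 23 of 58 Klrd1-positive cells (39.7%) had a partner, against 28 of 392 (7.14%) of the rest. In CD122+CD49a+ cluster 3 the shares were 45.2% and 31.0%, and in cluster 5 22 of 63 (34.9%) and 4 of 17. The intervals of the paired shares overlapped in clusters 3 and 5, before and after thinning. Klrc1 and Klrc2 themselves met in the same cells of CD122+CD49a+ cluster 1, where 21 of 37 Klrc1-positive cells (56.8%) had a Klrc2 UMI against 3.39% of the others. The share of 56.8% can hold reads of either gene that the counting placed on the other.

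Klrk1, the activating NKG2D receptor, was counted in lymphocytes and in several non-lymphoid classes. In LSM, 1098 of its 1154 UMIs lay outside the lymphocyte cluster, where 15391264 of all 15580978 UMIs lay. In the CD122+CD49a+ library 405 of its 577 UMIs lay inside the lymphocyte clusters, where 1130517 of all 2300702 UMIs lay. Klrk1 was highest in CD122+CD49a+ clusters 5 (695 CPM, 547 to 870) and 3 (587 CPM, 506 to 677), whose intervals overlapped. CD122+CD49a+ cluster 7 (23 cells) held 536 CPM (400 to 703). LSM cluster 10 held 295 CPM (223 to 383), and CD122+CD49a+ cluster 1 held 145 CPM (116 to 179). Among non-lymphoid LSM cells it stood at 172 CPM in cluster 5, 135 CPM in mature DC-like cluster 6, 115 CPM in conventional DC-like cluster 2 and 90.5 CPM in cross-presenting DC-like cluster 3. CD122+CD49a+ cluster 2 held 194 CPM. These non-lymphoid clusters thus spanned the level of the largest lymphocyte cluster, CD122+CD49a+ cluster 1. Klrk1 was near absent where Klrd1 was not in lymphoid progenitor-like LSM cluster 1, with 1 Klrk1 UMI beside 893 of Klrd1 in 575 cells. Plasmacytoid DC-like LSM cluster 7 also held little, 11 Klrk1 UMIs beside 318 of Klrd1.

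Klrk1 met Klrd1 more often in LSM cluster 2, in 195 of 445 Klrd1-positive cells (43.8%) against 22 of 99 others (22.2%), but after thinning to 1000 UMIs the shares were 13% and 9.21%. In LSM cluster 10 the shares were 61.4% and 16.2%, and 40.6% and 12.8% after thinning. In CD122+CD49a+ cluster 1 they were 46.6% and 7.14%, and 31.6% and 6.64% after thinning. In CD122+CD49a+ cluster 3 they were 60.5% and 39.4%, and 40.2% and 36.2% after thinning. In mature DC-like LSM cluster 6 they were 38.2% and 25.6%, and 28.9% and 7.26% after thinning. In cross-presenting DC-like LSM cluster 3 they were 47.4% and 40.2%, and 19.1% and 7.10% after thinning. At the common depth the intervals of the paired shares separated in CD122+CD49a+ cluster 1 and in LSM cluster 6. They overlapped in LSM clusters 2, 3, 5 and 10 and in CD122+CD49a+ clusters 2, 3, 5 and 7.

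Klre1, a receptor with a Klri1 or Klri2 partner, was highest in CD122+CD49a+ cluster 5, at 622 CPM (68 UMIs) with a UMI in 47.5% of cells. It stood at 381 CPM in cluster 7, 256 CPM in cluster 3, 84.9 CPM in cluster 1 and 269 CPM in LSM cluster 10. Non-lymphoid LSM cells held 131 Klre1 UMIs (8.51 CPM), 45 of them in cluster 2, 30 in cluster 3 and 27 in cluster 5. In LSM cluster 2, 7.72% of cells had a Klre1 UMI, and 1.84% had one after thinning to 1000 UMIs. Klre1 was therefore the third receptor gene with counts in DC-like cells, far below its lymphocyte levels.

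Klrb1c, the NKR-P1C gene, had its own order among lymphocytes. It stood at 174 CPM (19 UMIs) in CD122+CD49a+ cluster 5 and 158 CPM (95 UMIs) in cluster 1, against 80.3 CPM in cluster 3 and 21.1 CPM (4 UMIs) in LSM cluster 10. CD122+CD49a+ cluster 1, low for Klrd1 and Klrk1, was therefore among the higher clusters for Klrb1c. In that cluster 13 of 74 Klrb1c-positive cells (17.6%) had a Klrd1 UMI, against 45 of 376 others (12%). Outside the lymphocytes, 10 of its LSM UMIs lay in 8 cells of lymphoid progenitor-like cluster 1. Of the 50-base stretches near the Klrb1c transcript end, 17.9% recur in Gm44511, Klrb1a or Klrb1b, and Gm44511 overlaps Klrb1c on the same strand, so its counts are uncertain to that extent.

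Klrg1, the inhibitory cadherin receptor, marked LSM cluster 10, at 174 CPM (33 UMIs) with a UMI in 25.9% of cells. It stood at 43.2 CPM (14 UMIs) in CD122+CD49a+ cluster 3 and 35 CPM (21 UMIs) in cluster 1, with 1 UMI in cluster 5. In LSM cluster 10, 17 of 21 Klrg1-positive cells (81.0%) had a Klrd1 UMI, against 27 of 60 others (45.0%). In CD122+CD49a+ cluster 1 only 1 of 20 did. All Klrg1 UMIs of the kept cells lay in lymphocyte clusters. With 3 counts as the limit that a count of 0 allows, the share of cells with a UMI is at most 0.103% of the 2906 other LSM cells and 0.625% of the 480 other CD122+CD49a+ cells. These limits concern detected UMIs and not expression.

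Ncr1 was rare. Its 24 CD122+CD49a+ UMIs lay in 14 cells (1.14%), all in lymphocyte clusters, with 14 UMIs in 5 cells of cluster 7, 5 UMIs in 4 cells of cluster 5, 3 UMIs in cluster 1 and 2 in cluster 3. Cells with a CD3 chain UMI held 10 of these UMIs, in 9 of 731 cells. Cells without one held 14 UMIs in 5 of 497 cells, but most of the 497 lay outside the lymphocyte clusters. Of the lymphocytes without CD3, 1 of 27 in cluster 1 and 1 of 11 in cluster 3 had Ncr1. In clusters 5 and 7 these were 1 of 5 and 2 of 3 cells. All 5 had a UMI of the adaptor genes Tyrobp or Fcer1g, as did 465 of the 497. Of the Ncr1 UMIs, 11 came from 2 cells of the cycling cluster 7, so its level of 144 CPM there rests on very few cells.

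Differences between lymphocyte clusters were called by the same rule. In T cell-like LSM cluster 10 over the 3 pooled DC-like LSM clusters, 4 of 5 receptor genes tested were called higher, against 9.76% of all genes tested. Klrc1 had 78 UMIs against 2, a ratio of 1406 (376 to 11816). Klrg1 had 33 against 0, a ratio of 397 with a floor of 3 counts in place of the 0. Klre1 was 21.9-fold higher and Klrk1 2.78-fold higher (2.08 to 3.65). Klrd1 was 1.61-fold higher (1.34 to 1.93) and was not called. Klrc1 and Klrg1 passed the 20-UMI minimum only through LSM cluster 10, so the count of 4 is a description.

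Between CD122+CD49a+ clusters 3 and 1, 4 of 7 genes tested were called higher in cluster 3, against 2.79% of all genes. Klrd1 was 6.39-fold higher (5.09 to 8.07), Klrk1 4.05-fold, Klre1 3.02-fold and Klrc1 2.48-fold. Klrc2 (1.93), Klrg1 (1.24) and Klrb1c (0.508, 0.316 to 0.790) were not called. Klrb1c thus lay on the other side of 1 from the 4 called genes.

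Between CD122+CD49a+ clusters 5 and 1, 4 of 7 were called higher in cluster 5, against 2.37% of all genes. Klrd1 was 9.70-fold higher (7.54 to 12.5), Klre1 7.32-fold, Klrk1 4.80-fold and Klrc2 2.74-fold, whereas Klrb1c (1.10) and Klrc1 (1.24) were not called and Klrg1 rested on 1 UMI in cluster 5. Cluster 5 over cluster 3 gave 2 of 6 genes called, Klrb1c (2.16) and Klre1 (2.42), against 6.69% of all genes. Klrk1 (1.18), Klrd1 (1.52), Klrc2 (1.42) and Klrc1 (0.50) did not pass there.

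The T cell-like clusters of both gates could also be set side by side, though gate and library cannot be told apart. Of 7 genes tested in CD122+CD49a+ cluster 3 over LSM cluster 10, Klrb1c (3.81) and Klrc2 (3.39) were called higher, against 7.43% of all genes. Klrg1 was called lower (0.249, 0.123 to 0.477), against 7.97% of all genes. Klrc2 and Klrg1 passed the minimum only through the cluster where they were higher, as did Klrb1c, with 4 UMIs in LSM cluster 10. Klrd1 (1.54), Klrk1 (1.99), Klre1 (0.954) and Klrc1 (0.533) were not called.

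Lymphocytes were next divided by their own transcripts instead of by cluster. In the CD122+CD49a+ library, 118 lymphocytes had a CD3 and a CD8 chain UMI, 584 had CD3 without CD8, and 46 had no CD3 UMI. Klrd1 had a UMI in 69.5% (60.3 to 77.6) of the CD3+CD8+ cells and 27.9% (24.3 to 31.7) of the CD3+CD8- cells. Klrk1 (51.7% and 23.1%), Klrc1 (31.4% and 9.25%), Klrc2 (26.3% and 11.0%) and Klre1 (28.0% and 16.1%) had the same order. Klrb1c had the reverse order, with 5.08% and 16.8% (13.8 to 20.1). Cells with CD8 transcripts thus had the higher share for 5 receptor genes and the lower share for Klrb1c. Depth was not equalised for these shares, and a cell whose CD8 transcripts were missed counts as CD3+CD8-.

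In LSM, Klrd1 had a UMI in 79.6% of 49 CD3+CD8+ cells and 16.1% of 31 CD3+CD8- cells. Klrc1 (65.3% and 9.68%), Klre1 (53.1% and 6.45%), Klrk1 (55.1% and 16.1%) and Klrg1 (32.7% and 16.1%) had the same order. After thinning to 1000 UMIs before the split, Klrd1 stood at 58.7% of 46 and 12.5% of 32 cells in LSM and at 63.7% and 24.7% in the CD122+CD49a+ library.

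A CD122+CD49a+ division by adaptor transcripts gave a related pattern. Among CD3+ lymphocytes, the 158 cells with a Tyrobp or Fcer1g UMI had Klrd1 in 72.8%, Klre1 in 44.9%, Klrk1 in 53.8% and Klrc2 in 25.9%. The 544 without an adaptor UMI had 23.9%, 10.3%, 20.4% and 9.93%. Depth was not equalised for this division either. The 60 CD3+ cells with a Cd4 UMI had Klrb1c in 12 cells, Klrd1 in 6 and Klrc1 in 0. Cells without a CD3 UMI numbered 46, and 32.6% of them had Klrd1, 41.3% Klrk1, 17.4% Klrb1c and 10.9% Ncr1.

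**Figure D4:**
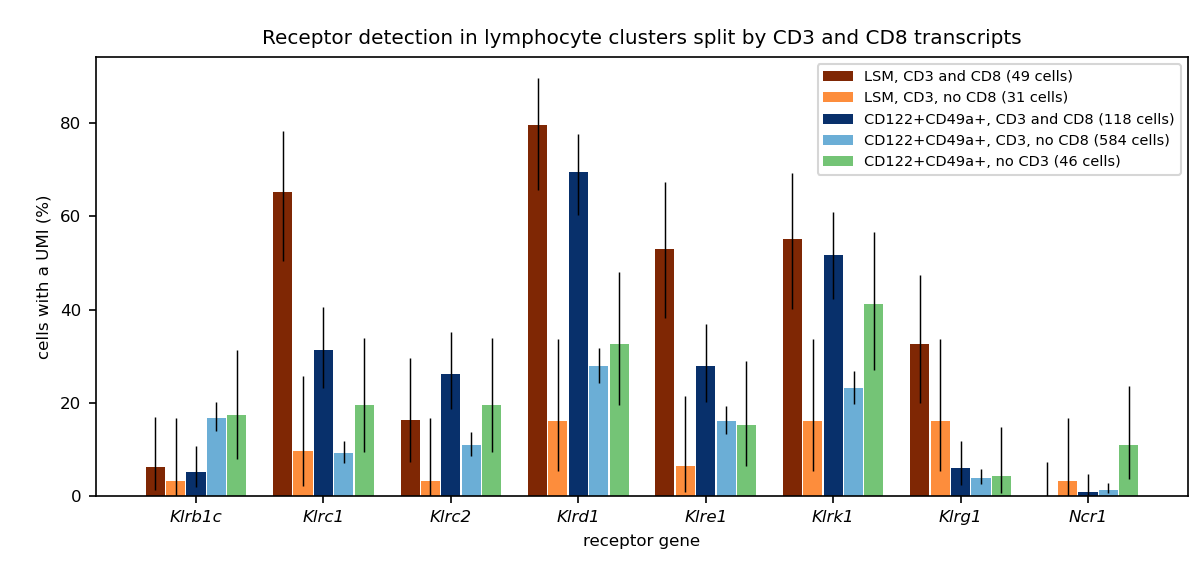
Share of cells with a UMI (percent, bars from 0, exact 95% intervals) for the receptor genes in LSM CD3+CD8+ (49) and CD3+CD8- (31) and CD122+CD49a+ CD3+CD8+ (118), CD3+CD8- (584) and CD3-negative (46) lymphocytes. Klrd1 is at 79.6% and 69.5% in the CD8 subsets and 16.1% and 27.9% in the CD3+CD8- subsets, and Klrb1c is at 5.08% and 16.8% in the CD122+CD49a+ subsets.

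Several receptor genes often met in 1 cell. A UMI of 3 or more of the 8 genes was present in 39 of 80 cells of CD122+CD49a+ cluster 5 (48.8%), 11 of 23 of cluster 7 (47.8%), 35 of 81 of LSM cluster 10 (43.2%) and 68 of 195 of CD122+CD49a+ cluster 3 (34.9%). In CD122+CD49a+ cluster 1 the count was 41 of 450 (9.11%), and 61.8% of its cells had none of the genes. Conventional DC-like LSM cluster 2 had 20 of 544 (3.68%). The most genes in a cell was 7, in LSM cluster 10. Depth was not equalised for these counts.

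The receptors' signalling partners, a list of adaptors and kinases, gave 6 of 12 tested genes called higher in the CD122+CD49a+ library, against 25.0% of all genes, and 0 lower, against 7.76%. The list's median log2 ratio was 1.22, against 0.31 over all genes. Hcst, the adaptor of NKG2D, was 8.23-fold higher, Cd247, the CD3 zeta chain, 16.8-fold, and Zap70, the kinase that binds it, 90.6-fold. Tyrobp (0.686), Fcer1g (0.655) and the kinase Syk (1.98) were not called. By class, Hcst had a UMI in 91.3% of CD122+CD49a+ cluster 3 and 87.7% of LSM cluster 10 but 25.7% of LSM cluster 2, where Tyrobp had a UMI in all 544 cells and Fcer1g in 99.6%. Cd247 and Lck were at 0 in LSM cluster 2. Klrk1-bearing lymphocytes and DC-like cells thus lay in classes with unlike adaptor levels.

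Tyrobp also separated the lymphocyte clusters, with a UMI in 78.8% of CD122+CD49a+ cluster 5 against 13.8% of cluster 3, 6.00% of cluster 1 and 7.41% of LSM cluster 10. Among ligands, 5 of 11 were tested and 2 called higher, the NKG2D ligand Ulbp1 (3.59) and the NKR-P1 ligand Clec2d (4.32), against 25.0% of all genes. The median log2 ratio of the 5 was 0.72. H2-T23, which encodes Qa-1, stood at 0.774 and was present in 90.4% of LSM cluster 2, at 513 CPM. Of 9 other family genes, 7 had a row and 4 were tested, and Klrb1b (4.38), Klrb1f (8.64) and Klri2 (2.60) were called higher, 3 of the 4 tested against 25.0% of all genes. Klri1, a partner of Klre1, was not called at 0.508, and the list's median log2 ratio was 1.75.

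The genes with the most similar level across 19 clusters of at least 30 cells were found by correlating log CPM over 8642 genes, with no claim about function. For Klrb1c they were Zap70 (r = 0.983), Tbx21 (0.979) and Hopxos (0.975). For Klrc1 they were Samd3 (0.980), Ifitm10 (0.970) and Cd247 (0.969), and for Klrc2 Baiap3 (0.987), Cd3e (0.981) and Hopxos (0.976). Klrg1 was closest to Sh2d1a (0.975), and Klre1 to Baiap3 (0.927), Cd3g (0.926) and Klra9 (0.924). Klrd1 had weaker neighbours, S100a6 (0.798), Runx3 (0.769) and Klrk1 (0.755), as did Klrk1 with Adgrg5 (0.854) and Endod1 (0.841). Ncr1 was closest to Klra5 (0.978), Klra3 (0.972) and Styk1 (0.926), on few UMIs. The clusters of a library share its depth, and with a pseudocount of 1 CPM 13 of the 24 named genes were still among the closest.

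In the GRCm38 build, with GENCODE M21 annotation, Klre1 (chr6:129577905-129585827, + strand), Klrd1 (chr6:129591782-129598775, + strand), Klrk1 (chr6:129610323-129623864, - strand), Klrc2 (chr6:129647496-129660689, - strand) and Klrc1 (chr6:129666015-129678973, - strand) lie together within 101.1 kb. Klrc3 is the only other coding gene in that interval. Klrb1c (chr6:128778485-128789215, - strand) and Klrg1 (chr6:122270596-122282882, - strand) lie elsewhere on the same chromosome, and Ncr1 is at chr7:4337724-4345164 (+ strand). Klrd1 and Klrk1, which had counts in DC-like cells, and Klrc1 and Klrc2, which had almost none, are therefore neighbours. None of the 8 genes overlaps an antisense gene in that annotation.

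Sequence upstream of the start is shown for 3 genes of different cell range: Klrk1 with lymphocyte and DC-like counts, Klrc1 with lymphocyte counts, and Ncr1 with counts in few cells. The 250 bases before the start were taken from RefSeq (GRCm38.p6). For Ncr1, unlike Klrk1 and Klrc1, the first bases after that start did not match a transcript, so its start is uncertain. Capitals mark matches on either strand to a Runx motif (TGTGGT or ACCACA), an Ets core (GGAAG or CTTCC) or a T-box half-site (GTGTGA or TCACAC), and no matches overlap.
Klrk1 upstream window, chr6:129623865-129624114 (- strand): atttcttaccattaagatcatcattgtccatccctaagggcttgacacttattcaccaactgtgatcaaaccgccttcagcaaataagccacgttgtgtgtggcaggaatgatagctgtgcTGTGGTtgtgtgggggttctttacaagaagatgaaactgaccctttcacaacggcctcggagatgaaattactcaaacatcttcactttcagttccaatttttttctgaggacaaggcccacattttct
Klrc1 upstream window, chr6:129678974-129679223 (- strand): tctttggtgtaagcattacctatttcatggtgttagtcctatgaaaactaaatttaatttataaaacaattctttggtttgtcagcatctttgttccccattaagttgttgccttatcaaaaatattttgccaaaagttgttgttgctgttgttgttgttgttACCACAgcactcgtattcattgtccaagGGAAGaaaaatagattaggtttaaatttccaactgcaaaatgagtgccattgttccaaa
Ncr1 upstream window, chr7:4337465-4337714 (+ strand): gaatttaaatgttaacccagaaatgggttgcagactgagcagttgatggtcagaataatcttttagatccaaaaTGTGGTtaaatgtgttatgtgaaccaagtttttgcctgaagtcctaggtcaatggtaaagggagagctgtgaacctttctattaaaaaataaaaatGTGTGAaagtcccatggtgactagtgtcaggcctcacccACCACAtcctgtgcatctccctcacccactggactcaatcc
The Klrk1 window held 1 Runx match, the Klrc1 window 1 Runx and 1 Ets match, and the Ncr1 window 2 Runx and 1 T-box match. Of 27025 windows of the same length, 14.2% held the Runx motif, 63.6% the Ets core and 12.2% the T-box half-site. A match describes letters and is not evidence of binding.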

How the data were processed

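Droplet single-cell RNA libraries, 1 per sorted gate, were read as gene by barcode matrices of raw UMI counts deposited by the authors (whole numbers, not normalised). The submitters' processing notes name STAR, Seurat 2.3.0 and GRCm38, and the matrices carry software version 3.0.1, per the file headers. The rule by which barcodes entered the matrices is not given in those sources. Samples were grouped by their labels. The 8 genes, the marker lists and the gene lists were chosen with earlier results of these data known.

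Barcodes needed 500 or more detected genes, and those above 10% mitochondrial UMIs (9 in each library) were dropped. Scrublet's own threshold marked 0.351% and 0.181% of barcodes, too few to have worked, so the top-scoring barcodes up to the expected doublet rate were taken out, 78 in LSM and 20 in CD122+CD49a+. Each library was clustered on its own by the Leiden method (scanpy 1.11.5, leidenalg 0.10.2) without Klr genes and Ncr1. A cluster took the name of the cell type whose markers were raised in the greatest proportion (3 or more), unless a different list was better represented among its 10 leading genes, or tied there with a higher-ranked gene. Proliferation markers, and those common to NK cells and ILC1, gave no names but could block one, so names are rebuilt here and not the authors'. UMIs were summed per class and scaled to CPM of the kept cells. Intervals are exact Poisson for CPM, Clopper-Pearson for shares and exact conditional for ratios (scipy 1.17.1). UMIs clump within cells, so these are too narrow for cells as the unit. A floor of 3 counts equals 0.193 CPM in LSM and 1.30 CPM in CD122+CD49a+. A gene was tested with at least 20 UMIs in both sums together, and called at 2-fold or more with the interval beyond 1. Shares across depths were compared after thinning each cell to 1000 UMIs, which left out 17 LSM and 212 (17.3%) CD122+CD49a+ cells. Named genes were the 8 receptors, the fixed lists, up to 5 leading genes per cluster and the 3 closest genes per receptor. A gene that this rule names is not reported here. Alternatives changed the gene, mitochondrial and doublet filters, the scaling, the clustering, the thinning and the likeness settings. TMM factors came from edgeR 4.0.16. On simulated data with 200 changed genes, the interval of the library ratio covered 96.1% of 11217 unchanged genes, and the rule called 40% of genes raised 2-fold and 99% raised 4-fold. The simulated counts were Poisson draws, the model behind the interval, without clumping, so 96.1% is no check on clumped counts. The upstream table had no entry for Klrd1 and Klrg1.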

Additional observations from a re-analysis of the deposited data

Results flagged for a closer look

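The barcodes under 500 detected genes enter no comparison above. In the CD122+CD49a+ library 398 such barcodes, with a median of 666 UMIs, held 142 Klrd1 UMIs (506 CPM) in 76 barcodes (19.1%), 83 Klrk1 UMIs (296 CPM), 65 Klre1 UMIs (232 CPM), 38 Klrc2 UMIs (135 CPM), 29 Klrb1c UMIs (103 CPM) and 25 Klrc1 UMIs (89.1 CPM). Each lay above the limit that a count of 0 allows, whereas Klrg1 (2 UMIs) and Ncr1 (3 UMIs) did not. In the LSM library 59 such barcodes, with a median of 643 UMIs, held 16 Klrd1 UMIs in 7 barcodes (11.9%).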

How the results depend on the processing

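No paired analysis was possible because each gate had 1 library. The count of 7 of 8 receptor genes called higher in the CD122+CD49a+ library held under all 7 settings tried, and the library ratios moved beyond their interval in 12 of 56 cases. Those that moved over 1.5 times did so with at least 1000 genes or with CPM averaged over cells, and are given beside the ratios. Using all barcodes with at least 500 genes, a setting chosen after seeing the data, moved no ratio beyond its interval. Clustering with the Klr genes and Ncr1 moved CD122+CD49a+ cluster 1 to 58.6 CPM of Klrc1, 38.2 of Klrc2 and 38.2 of Klre1, and keeping predicted doublets moved the small cluster 7 to 67.9 CPM of Klrc1 and 73.1 of Ncr1. With at least 1000 genes, LSM cluster 10 held 252.0 CPM of Klrc1. The Klrd1 share in the DC-like LSM clusters was 61.2% of 959 cells at a Leiden resolution of 1.0. Thinning to 1000 UMIs lowered the share of Klrd1-positive cells with Klrc1 or Klrc2 to 32.6% of 92 in CD122+CD49a+ cluster 3 and 0% of 5 in cluster 7, and, in the transcript split, lowered Klrd1 in LSM CD3+CD8+ cells to 58.7%, Klrc1 in CD122+CD49a+ CD3+CD8+ cells to 20.9% and in CD3+CD8- cells to 6.93%. With a pseudocount of 1 CPM, 13 of 24 closest genes were shared. Clusters 3 and 5 over 1 gave no value with at least 1000 genes, since 45 of 748 CD122+CD49a+ lymphocytes (6.02%) passed that minimum and the clusters could not be matched. Depth limits low shares most in the CD122+CD49a+ library.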
